A study of Mus musculus with 10 samples.

Results

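The transcripts described here are 6 long noncoding RNAs that stay mostly in the nucleus: Malat1, Neat1, Kcnq1ot1, Mir100hg, Gm26917 and Lncpint. They were taken from the 32285 features of 5 droplet single-cell libraries of SW1 mouse melanoma tumors, because their share of a barcode's unique molecular identifiers (UMIs, each standing for 1 captured RNA molecule) had been proposed as a way to tell barcodes that hold a nucleus from barcodes that hold a whole cell. The share was measured in every barcode with at least 200 detected genes and at most 10% of its UMIs in mitochondrial (mt-) genes. Barcodes were read in 3 classes: tumor barcodes (at least 1 UMI of Sox10, a neural crest and melanocyte transcription factor, and none of Ptprc), Ptprc-positive barcodes (at least 1 UMI of Ptprc, which encodes the leukocyte antigen CD45) and the remaining barcodes. Because the share of the 6 RNAs, the mitochondrial share and the barcode classes chose these RNAs, their values are given as a description, with no test.

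SW1 is a mouse melanoma cell line, and the tumors grew under the skin of female C3H/HeJ mice that were 4 to 6 weeks old at injection. The control d0 library was made before treatment, 10 days after injection by the labels. The control d7 and control d21 libraries came from mice on plain water, and the L-fuc d7 and L-fuc d21 libraries from mice whose drinking water held L-fucose (L-fuc), a sugar that cells attach to glycoproteins and glycolipids, for 7 or 21 days. The labels give 100 mM in the treatment protocol and another unit in the extraction protocol, and 5 or 6 mice per arm, with 3 mice before treatment. The deposited data name each library as pooled, while the labels do not say how the tumors were combined. Every condition is 1 library, so no comparison between conditions has a replicate. The labels name sorted CD45+ cells, yet tumor barcodes were 16.3% (270 of 1660) to 47.3% (9137 of 19298) of the barcodes kept.

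Long noncoding RNAs are transcribed and processed like messenger RNAs, but many are retained in the nucleus and are not translated. Malat1 collects in nuclear speckles, bodies that store splicing factors, and Neat1 is the scaffold on which paraspeckles are built. Kcnq1ot1 is made from the paternal chromosome only and silences the imprinted genes around Kcnq1 in cis. Mir100hg is the host transcript of the miR-100, let-7a-2 and miR-125b-1 microRNAs. Lncpint is a transcript induced by p53. Gm26917 is a short locus of unknown function beside other loci that resemble ribosomal RNA precursors. Messenger RNAs for ribosomal and housekeeping proteins are mostly cytoplasmic, and mt- transcripts lie in mitochondria, so a nucleus without its cytoplasm is poor in both and rich in the 6 RNAs.

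All positions are on GRCm38 with GENCODE vM21 gene models. Malat1 (ENSMUSG00000092341) lies at chr19:5795690-5802672 on the minus strand, and Neat1 (ENSMUSG00000092274) at chr19:5824708-5845478 on the same strand, 22.0 kb away. Kcnq1ot1 (ENSMUSG00000101609), annotated as antisense, lies at chr7:143203458-143296549 on the minus strand. Lncpint (ENSMUSG00000044471) lies at chr6:31082565-31220488 on the minus strand, and Mir100hg (ENSMUSG00000074415) at chr9:41327077-41716994 on the plus strand, the widest span of the 6 at 390 kb. Gm26917 (ENSMUSG00000097971) lies at chr17:39843013-39846341 on the plus strand, 616 bases before Gm42418. Because near-identical sequence occurs in many copies at such loci, the count of Gm26917 is uncertain.

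Malat1 and the long form of Neat1 do not end in an ordinary poly(A) tail, and their 3′ ends are shown because capture on oligo-dT primers depends on adenine-rich sequence. In Malat1 a run of 12 adenines, in capitals, stands 6 bases before the tRNA-like mascRNA that RefSeq places at chr19:5795924-5795981 and that is cut from the transcript. The short Neat1 transcript (3170 bases) ends after a polyadenylation signal, AATAAA, in capitals, whereas the last 60 bases of the long transcript (20771 bases) held no such signal. All 3 sequences are from the GRCm38 genome, minus strand, with positions chr19:5795924-5796039, chr19:5842307-5842366 and chr19:5824708-5824767.
Malat1 3′ element: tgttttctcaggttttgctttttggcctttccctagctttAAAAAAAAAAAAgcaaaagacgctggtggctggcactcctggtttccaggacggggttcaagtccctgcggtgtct
Neat1 short transcript end: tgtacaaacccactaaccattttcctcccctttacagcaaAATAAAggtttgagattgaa
Neat1 long transcript end: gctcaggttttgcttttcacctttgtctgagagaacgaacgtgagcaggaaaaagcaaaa

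Runs of 12 adenines (AAAAAAAAAAAA, sense strand only) were found in 0.549% of the 1041344 windows of 116 bases, the length of the Malat1 element, laid over the annotated lincRNA genes. AATAAA was found in 4.28% of 2016215 such windows of 60 bases. Over its whole span Malat1 held 1 run of at least 12 adenines, Neat1 and Gm26917 none, Lncpint 4, Kcnq1ot1 8 and Mir100hg 18. The spans differ in length, and per 10 kb Malat1 held the most (1.43), followed by Kcnq1ot1 (0.859), Mir100hg (0.462) and Lncpint (0.29). Gm26917 stood apart in composition, with 69.1% G and C against 40.3% to 47.3% in the other 5 genes. The microRNAs inside Mir100hg are shown because they are the known products of this host transcript. They were not measured here, and the 3 printed mature forms, from RefSeq on GRCm38.p6 with the seed (bases 2 to 8) in capitals, share no seed.
mmu-miR-100-5p: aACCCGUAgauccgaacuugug
mmu-let-7a-2-3p: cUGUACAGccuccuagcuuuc
mmu-miR-125b-5p: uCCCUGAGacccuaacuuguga

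The barcodes kept numbered 1660 for control d0, 19298 for control d7, 12265 for L-fuc d7, 1981 for control d21 and 1236 for L-fuc d21, with medians of 2295 to 4922.5 UMIs. At most 324 barcodes were shared by any pair of libraries (control d7 and L-fuc d7, 2.64% of the smaller library). The largest share of the smaller library was 2.88%, for the 57 barcodes shared by control d7 and control d21. The control d0 library stood apart, with a median mitochondrial share of 0.269% against 1.65% to 2.83% in the other 4 libraries. Tumor markers summed to 1108 to 1393 CPM (counts per 1e+06 UMIs) in tumor barcodes and 118 to 681 CPM in Ptprc-positive ones. The sum includes Sox10, which defines the tumor class, so part of this gap is set by that definition. Some Ptprc-positive barcodes carried at least 2 distinct tumor markers, and more of these than of any other cell type. They were 27.2% in control d7 and 7.21% in L-fuc d7, against 0.617% to 3.48% in the other libraries. Sox10 itself was found in 2058 of 5094 Ptprc-positive barcodes in control d7 and 692 of 4413 in L-fuc d7. It was found in 11 of 811 in control d0, 28 of 783 in control d21 and 43 of 489 in L-fuc d21. The tumor list held 12 markers, against 5 to 7 in the other lists.

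The 6 RNAs together made up 0.349% of the UMIs of kept barcodes in control d0, 1.01% in control d7, 0.742% in L-fuc d7, 0.763% in control d21 and 0.813% in L-fuc d21. Of these pooled shares control d0 held the lowest and control d7 the highest. By the median over barcodes L-fuc d21 was highest, at 0.913% against 0.647% in control d7, and control d0 again lowest, at 0.189%. In pooled UMIs the order of the classes was the same in every library, with tumor barcodes lowest, Ptprc-positive barcodes between and the remaining barcodes highest, for example 0.900%, 1.02% and 1.55% in control d7. By median this order held only in L-fuc d21, and the remaining barcodes were lowest in control d0 (0%), L-fuc d7 (0.358%) and control d21 (0.0494%). The exact Poisson intervals of the pooled shares did not overlap within a library, but they cover counting error only, as all intervals here do. No member UMI at all was found in 22.9% of the control d0 barcodes and 20.3% of those of control d21, against 0.865% in control d7.

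Malat1 supplied most of these molecules, 85.4% to 93.3% of the member UMIs in each library and class. In tumor barcodes Malat1 stood at 2968 CPM (95% interval 2918 to 3018) in control d0, 7758 CPM in control d7, 6237 CPM in L-fuc d7, 6424 CPM in control d21 and 6498 CPM in L-fuc d21. In Ptprc-positive barcodes it stood at 3316, 8757, 6770, 7189 and 7896 CPM in the same order. Both classes therefore had their lowest Malat1 in control d0 and their highest in control d7, and in each library Ptprc-positive barcodes held more Malat1 for their total than tumor barcodes.

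Neat1 was higher in tumor than in Ptprc-positive barcodes of every library, the reverse of Malat1. In tumor barcodes it stood at 110, 363, 322, 261 and 204 CPM in control d0, control d7, L-fuc d7, control d21 and L-fuc d21. In Ptprc-positive barcodes it stood at 77.4, 343, 235, 212 and 182 CPM. The remaining barcodes held still more Neat1, from 128 CPM in control d0 to 599 CPM in control d7.

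Kcnq1ot1 was also higher in tumor barcodes, at 32.7, 141, 78.5, 87.3 and 112 CPM in the order control d0, control d7, L-fuc d7, control d21 and L-fuc d21. Its Ptprc-positive values were 16.0, 126, 52.8, 24.96 and 40.5 CPM. The gap between the classes was narrowest in control d7, the library with the largest share of tumor-marker barcodes in its Ptprc-positive class. In barcodes gated by macrophage and T cell markers Kcnq1ot1 stood at 102 and 105 CPM in control d7. It was lower in these gates of every other library, for example 18.1 and 29.6 CPM in control d21. The part of tumor-marker barcodes in the narrow gap was not tested.

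Mir100hg was higher in tumor than in Ptprc-positive barcodes of every library, although the remaining barcodes held more of it than tumor barcodes in control d7 (50.9 CPM) and control d21 (42.4 CPM). In tumor barcodes it stood at 13.1, 32.1, 30.8, 28.0 and 32.6 CPM in the same order of libraries, so the 4 later libraries lay close together. In Ptprc-positive barcodes it was counted 3 times in control d0 (0.379 CPM, interval 0.0782 to 1.11), 7 times in control d21 (0.848 CPM) and 17 times in L-fuc d21 (2.21 CPM), against 666 times in control d7 (22.3 CPM) and 308 times in L-fuc d7 (9.58 CPM). The 2 day-7 libraries are those with the most tumor-marker barcodes among the Ptprc-positive ones. In barcodes gated by T cell markers Mir100hg was at 12.7 CPM in control d7 and 3.16 CPM in L-fuc d7. No UMI was found in control d0 (interval up to 1.66 CPM), control d21 (up to 13.7 CPM) or L-fuc d21 (up to 13.6 CPM). At day 21 a level like that of either day-7 library could therefore have been missed. How much of the T-gated Mir100hg was free RNA in the droplets was not tested, nor was the part of tumor-marker barcodes in the class values.

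Gm26917 was lower in tumor than in Ptprc-positive barcodes of all libraries but L-fuc d21, and Lncpint in control d0 and both day-7 libraries. Gm26917 stood at 48.6, 681, 371, 305 and 432 CPM in tumor barcodes and at 142, 903, 572, 449 and 396 CPM in Ptprc-positive barcodes. Relative to its lowest value, the range of Gm26917 over the tumor libraries was wider than that of any other member. Lncpint stood at 9.60, 25.4, 22.9, 37.4 and 36.8 CPM in tumor barcodes and at 12.5, 38.3, 26.1, 28.0 and 32.4 CPM in Ptprc-positive barcodes. At day 21 Lncpint was higher in tumor barcodes of both libraries, although the intervals of the L-fuc d21 values (32.6 to 41.5 and 28.5 to 36.7 CPM) overlapped.

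**Figure D1:**
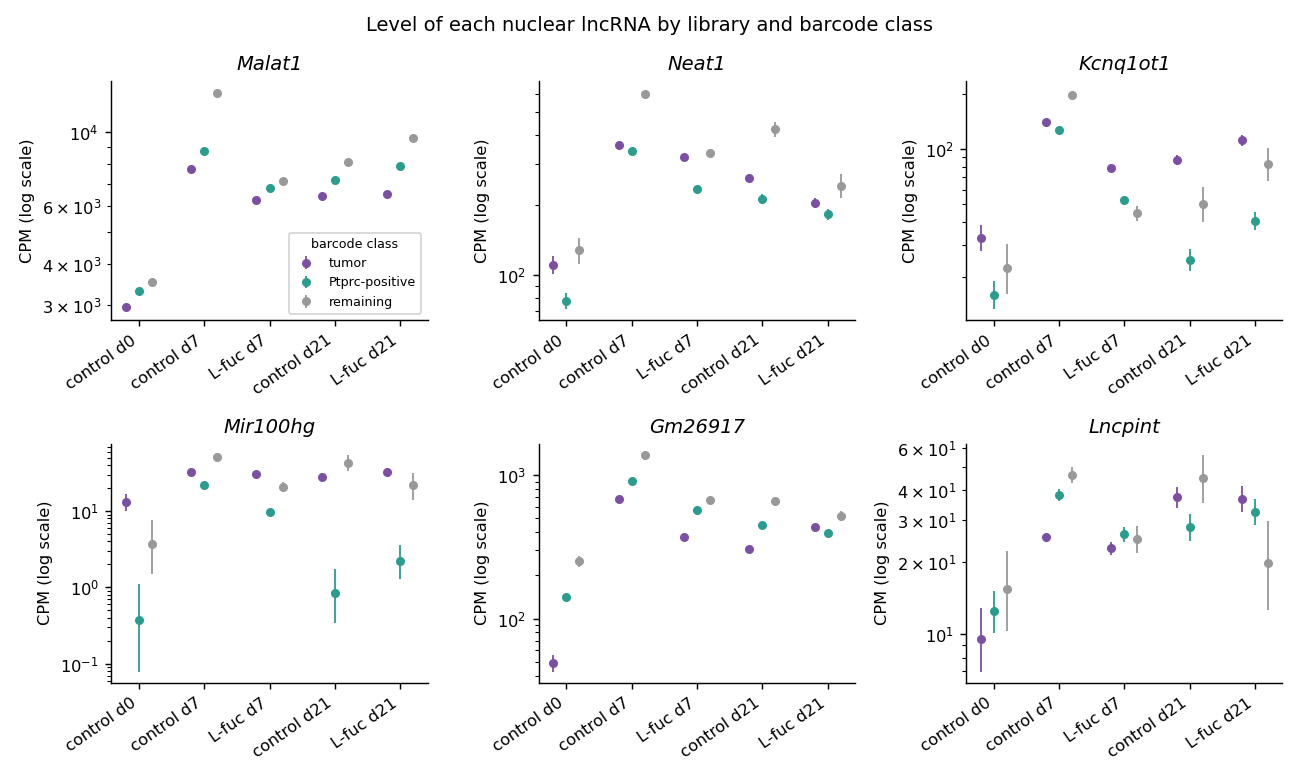
Level of each RNA in CPM (log scale) by library, with a point for each barcode class and bars for the exact 95% Poisson interval of the summed UMIs. The control d0 points are the lowest for all 6 RNAs in tumor barcodes, and Mir100hg in Ptprc-positive barcodes falls between 0.379 CPM in control d0 and 22.3 CPM in control d7.

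The share of the 6 RNAs rose with the mitochondrial share rather than against it. The Spearman correlation between them over barcodes was positive in all 15 combinations of library and class, from 0.192 (control d0 Ptprc-positive, 811 barcodes) to 0.669 (control d21 tumor, 498 barcodes), and the range without control d0 was 0.291 to 0.669. Both shares have the barcode's total UMIs as denominator, and the barcodes are not replicates. In tumor barcodes of control d7 the median share was 0.413% below 0.5% mitochondrial UMIs, 0.381% at 1% to 2%, 0.573% at 2% to 5% and 2.52% at 5% to 10%. In control d21 the tumor median went from 0.430% at 1% to 2% to 3.44% at 5% to 10%. In both the rise was steepest in the barcodes next to the upper limit of the filter. In tumor barcodes of control d0 the median rose from 0.142% below 0.5% to 0.395% at 1% to 2% (44 barcodes). It was 0.226% at 2% to 5% (24 barcodes), while the pooled share rose through every group, from 0.264% to 0.968%. The highest of these groups held 6 barcodes.

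In control d7 the median share of the 6 RNAs was 3.498% in the 289 barcodes between 9% and 10% mitochondrial UMIs and 4.06% in the 237 barcodes between 10% and 11%. In L-fuc d7 the same medians were 2.51% (128 barcodes) and 3.01% (110 barcodes). The limit at 10% therefore fell inside a group of barcodes rich in the 6 RNAs in both libraries. Among all barcodes removed for exceeding 10%, the median was 2.23% to 4.33% over the 5 libraries, above the medians of 0.189% to 0.913% of the barcodes kept. At the lower limit of 200 genes only L-fuc d7 had many barcodes, with medians of 0.159% in the 147 barcodes of 200 to 219 genes and 0.112% in the 198 barcodes of 180 to 199 genes.

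**Figure D2:**
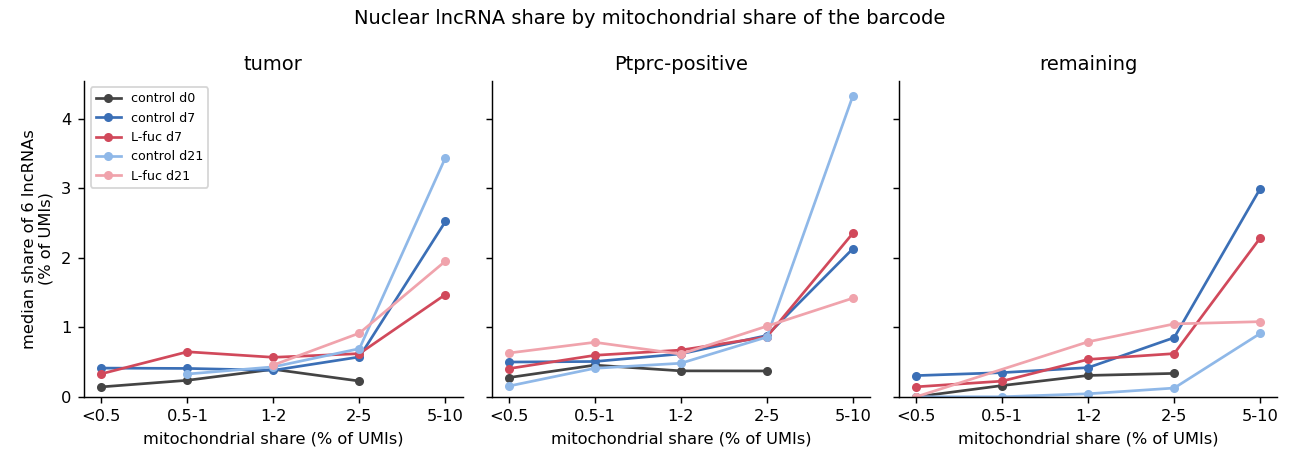
Median share of the 6 RNAs (% of UMIs) in barcodes grouped by mitochondrial share (% of UMIs), 1 line per library and 1 panel per barcode class; groups under 20 barcodes are left out. In control d7 tumor barcodes the median is 0.413% in the lowest group and 2.52% in the highest.

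By member, the correlation of Malat1 with the mitochondrial share was 0.172 to 0.654 over the 15 combinations, that of Gm26917 was 0.150 to 0.469 and that of Neat1 was 0.0347 to 0.385. All 45 of these correlations were positive. Toward total UMIs the 6 RNAs had no common direction, with correlations from -0.478 to 0.328, of which 4 of 15 were positive. Kcnq1ot1 is antisense to Kcnq1, and whether counting used strand is not given in the sources used here.

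Barcodes with a high share of the 6 RNAs and few mitochondrial UMIs, the combination that a bare nucleus would show, were rare. With limits of at least 5% for the 6 RNAs and at most 1% for mt- genes there were 7 in control d0 (0.422%), 139 in control d7 (0.720%), 43 in L-fuc d7 (0.351%), 10 in control d21 (0.505%) and none in L-fuc d21, where 0 of 1236 barcodes allows a share of up to 0.243% (3 counts of the total). Barcodes that were high in the 6 RNAs with more than 1% mitochondrial UMIs outnumbered them in every library, with 21, 1242, 283, 123 and 24 barcodes. Most kept barcodes lay above 1% in any case, with median mitochondrial shares of 1.65% to 2.83%, except in control d0 (0.269%). In control d7, 3.03% of kept barcodes lay below 0.5% and 9.23% at 0.5% to 1%. Of its 1381 barcodes high in the 6 RNAs, 10.1% held at most 1%, so being outnumbered there was near the rule for all barcodes. In control d0 these groups were 65.2% and 16.3%, against 7 of 28 high barcodes. Among tumor barcodes the nucleus-like combination was found in 45 of 9137 in control d7 (0.493%) and 5 of 3114 in L-fuc d7 (0.161%). It was found in 0 of 270 in control d0, 0 of 498 in control d21 and 0 of 325 in L-fuc d21, which allow up to 1.11%, 0.602% and 0.923%, so a share like that of control d7 was not detectable there. The classes were compared with barcodes thinned to an equal number of UMIs and shallower ones left out. In control d7 the combination was found in 1.94% of remaining, 0.455% of tumor and 0.429% of Ptprc-positive barcodes. In L-fuc d7 these shares were 0.629%, 0.201% and 0.174%. In the other libraries Ptprc-positive barcodes had the highest share, on at most 4 barcodes. In L-fuc d21 these were 2 of 472 barcodes that met the limits only after thinning, since 0 of 1236 did before it. The limit itself cut through a continuum, since control d7 held 18 barcodes between 5% and 5.5% and 12 between 4.5% and 5% at the same mitochondrial limit.

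The barcodes with at least 5% of the 6 RNAs had few cytoplasmic messenger RNAs, which the choice of these RNAs did not use. Ribosomal protein mRNAs (88 genes) took a median 7.03% of their UMIs in control d7, against 19.9% in the barcodes below 5%. The same medians were 6.23% and 23.8% in control d0, 5.14% and 20.6% in L-fuc d7, 3.34% and 18.8% in control d21, and 3.77% and 14.8% in L-fuc d21. The housekeeping mRNAs for actins, elongation factors, ferritins and other cytosolic proteins (13 genes) took 1.95% against 4.90% in control d7 and 1.37% against 6.77% in control d21. A larger share of 1 transcript group lowers all others by construction.

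Long genes went the other way. The Cell Ranger version in the matrix headers counts intronic reads by default, which adds to long-gene and lncRNA counts, and whether that setting was used is not given in the sources used here. Protein-coding genes that span at least 100 kb (2463 genes) took a median 10.7% of the UMIs in control d7 barcodes with at least 5% of the 6 RNAs, against 4.74% below, and 13.0% against 3.93% in control d21. The correlation of the 6 RNAs with this long-gene share was 0.223 to 0.791 over the 15 combinations of library and class. In barcodes of at least 2000 UMIs it was 0.330 to 0.754. The low ribosomal protein share was found with the high lncRNA share whether the mitochondrial share was below or above 1%, at 7.99% and 6.92% in control d7 and at 6.05% and 5.04% in L-fuc d7.

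**Figure D3:**
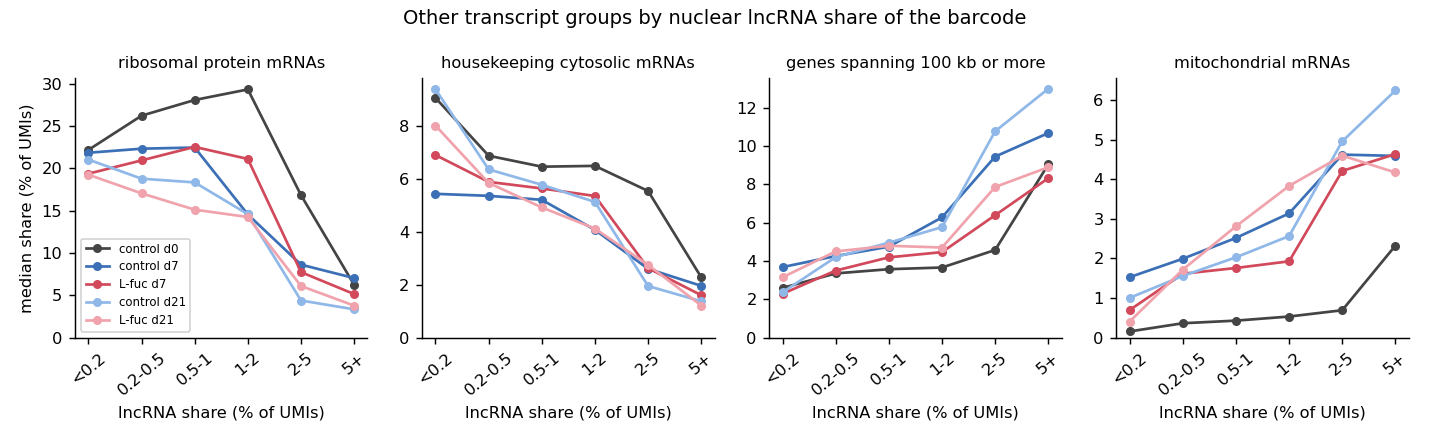
Median share (% of UMIs) of ribosomal protein, housekeeping, long-gene and mitochondrial transcripts in barcodes grouped by the share of the 6 RNAs (% of UMIs), 1 line per library, all classes together; groups under 20 barcodes are left out. In the highest group the ribosomal protein median lies between 3.34% (control d21) and 7.03% (control d7).

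Barcodes rich in Malat1 were also rich in the other members. Ptprc-positive barcodes of control d7 with under 0.5% Malat1 held Neat1 at 129 CPM, and those with at least 5% held it at 3662 CPM (1803 and 153 barcodes). Kcnq1ot1 went from 46.0 to 988 CPM, Lncpint from 15.5 to 236 CPM and Gm26917 from 339 to 7030 CPM between the same barcodes. Between the lowest and the highest Malat1 group with at least 20 barcodes, Neat1, Kcnq1ot1 and Gm26917 were higher in all 15 combinations of library and class, with median folds of 18.0, 9.17 and 18.9. Lncpint was higher in 14 of 15 and had no UMI in the top group of the other. Mir100hg was higher in 11 of 15, and in 3 of the other combinations the top group held none of its UMIs.

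Other gene groups separated along the same axis. The mRNAs for Nktr, Ankrd11, Ddx17, Rbm5, Rbm6, Clk1, Clk4 and Ogt, many of which are kept in the nucleus with introns retained, were higher in the top Malat1 group in 15 of 15 combinations (median fold 4.53). mRNAs for nuclear speckle proteins, the SR proteins and their partners, were higher in 15 of 15 (median fold 1.98) and those for paraspeckle proteins in 12 of 15 (1.51). The snoRNA host transcripts such as Gas5 and Snhg1, which are noncoding but reach the cytoplasm, were higher in only 4 of 15 (0.718). Housekeeping mRNAs were higher in 0 of 15 (0.332), ribosomal protein mRNAs in 2 of 15 (0.326) and genes of the Kcnq1ot1 domain in 0 of 15 (0.529), and p53 targets were higher in 11 of 15 (1.15). Mitochondrial mRNAs were higher in 15 of 15 (2.41), so the groups did not divide by nucleus and cytoplasm alone. Other nuclear lncRNAs, with their UMIs summed, were higher in 14 of 15 (1.997). That list holds Gm42418 and AY036118, the neighbours of Gm26917, which alone were higher in 14 of 15 (1.91). The rest of the list was not taken separately. Dissociation and heat shock genes such as Hspa1a and Egr1, which respond to tissue handling, were higher in 13 of 15 (1.42), and their part in the result was not tested.

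T cell receptor contigs offered a readout from separate libraries. Of barcodes with a productive receptor contig, 2 of 386 in control d0, 9 of 940 in control d7, 4 of 1072 in L-fuc d7, 5 of 56 in control d21 and 1 of 22 in L-fuc d21 had at least 5% of the 6 RNAs. Among Ptprc-positive barcodes without a contig the counts were 7 of 477, 207 of 4335, 124 of 3427, 73 of 728 and 13 of 467. In control d21 these shares were close, and in L-fuc d21 the receptor-bearing share was the higher, on 1 barcode. Some receptor-bearing barcodes had no Ptprc UMI. Of those with Ptprc, 1 of 334, 6 of 759, 4 of 986, 5 of 55 and 1 of 22 reached 5% in the same order of libraries. Receptor-bearing barcodes had higher ribosomal protein medians in every library, with 21.7% in control d7 and 26.0% in L-fuc d7 against 15.8% and 19.1%. By the marker gates described below, these medians also differed between cell types. In T-gated and macrophage-gated barcodes they were 22.2% and 15.5% in control d7 and 26.9% and 18.8% in L-fuc d7. In control d21 the order was the other way (16.8% and 18.9%). Receptor-bearing barcodes had more UMIs at day 7 (medians of 4534 and 5887 against 3772 and 3556) and in L-fuc d21 (11308 against 9182). They had fewer in control d0 (4942 against 7078) and in control d21 (5154.5 against 7091). The parts of depth and of cell type in these differences were not tested.

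Marker gates (at least 2 distinct markers of a cell type, and more than of any other) gave the levels by gate. In L-fuc d7, Neat1 was highest in neutrophil-gated barcodes, at 929 CPM (interval 777 to 1101, 51 barcodes), and in mast-gated barcodes, at 820 CPM (760 to 884, 130 barcodes). Red cell-gated barcodes of that library held 430 CPM, monocyte-gated 375 CPM, tumor-gated 292 CPM and NK-gated 211 CPM. Macrophage-gated barcodes held 174 CPM, T-gated barcodes 159 CPM and fibroblast-gated barcodes 150 CPM. The red cell gate held 2916 barcodes in L-fuc d7 and 1273 in control d7, against 2 or fewer in the other libraries. Its markers also summed to 2001.5 CPM in tumor and 5072 CPM in Ptprc-positive barcodes of L-fuc d7. This gate therefore does not by itself mark a red cell, and the part of free RNA in it was not tested. In control d7 the 36 neutrophil-gated barcodes held 416 CPM (292 to 577), which overlapped the 349 CPM (338 to 359) of the macrophage-gated barcodes. The other libraries had 19 neutrophil-gated barcodes or fewer, with Neat1 at 1753 CPM in control d0 (5 barcodes), 1700 CPM in control d21 (19) and 2056 CPM in L-fuc d21 (10), so neutrophil-gated barcodes had higher Neat1 than macrophage-gated barcodes in all 5 libraries. Their mitochondrial share in L-fuc d7 was low (median 0.484%).

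Malat1 had the same order in the highest gates of L-fuc d7 (neutrophil, mast and red cell) and another order below them. In L-fuc d7, among gates with at least 50 barcodes, it was 12072 CPM in neutrophil-gated, 9049 in mast-gated and 8927 CPM in red cell-gated barcodes. NK-gated barcodes held 7921, monocyte-gated 7423 and T-gated 6706 CPM. Tumor-gated barcodes held 6222, fibroblast-gated 5584 and macrophage-gated 4853 CPM. Macrophage-gated barcodes were below T-gated barcodes in control d0 (2041 against 4450 CPM), L-fuc d7 and control d21 (5783 against 11030 CPM) and above them in control d7 (9063 against 7724 CPM). In L-fuc d21 they were also above, with 29 T-gated barcodes. In pooled CPM the macrophage to T cell order of Malat1 therefore changed between libraries. By the median share of the 6 RNAs, T-gated barcodes were above macrophage-gated ones in all 5 libraries. These medians were 0.763% and 0.639% in control d7 and 1.00% and 0.872% in L-fuc d21.

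**Figure D4:**
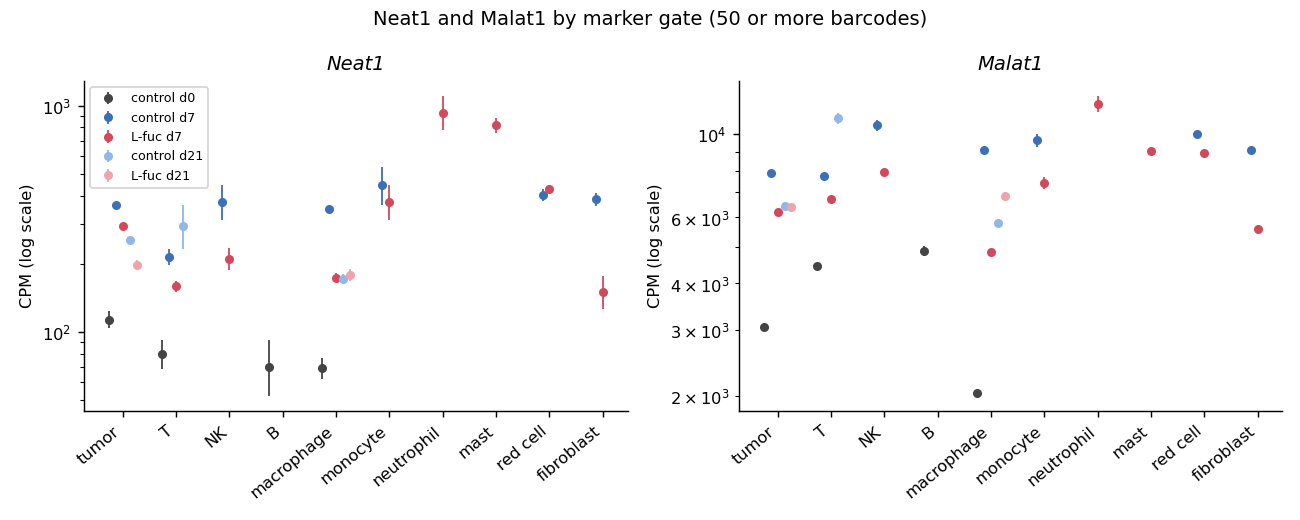
Neat1 and Malat1 levels (CPM, log scale) by marker gate and library for gates with at least 50 barcodes, with exact 95% Poisson intervals. Neat1 is highest in the neutrophil and mast gates of L-fuc d7, at 929 and 820 CPM.

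At day 7 the L-fuc library held less of the 6 RNAs in pooled UMIs than the control library in all classes. The share was 0.706% against 0.900% of UMIs in tumor barcodes, a log2 ratio of -0.35 (counting interval -0.36 to -0.34), and 0.767% against 1.02% in Ptprc-positive barcodes (-0.41, -0.42 to -0.40). In the remaining barcodes it was 0.823% against 1.55% (-0.91). Each of the 6 RNAs had the same sign in each class, although the interval of Mir100hg in tumor barcodes (-0.16 to 0.04) held 0. By the median over tumor barcodes the order was reversed, at 0.644% in L-fuc d7 and 0.594% in control d7, whereas the 95th percentile was 2.38% against 5.69%. The Ptprc-positive medians were 0.735% and 0.848%. Over all genes tested the median log2 ratio was -0.04 in tumor, -0.16 in Ptprc-positive and -0.35 in remaining barcodes, so relative to that shift the 3 summed ratios were smaller in size.

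By gene, Kcnq1ot1 had the largest day-7 difference in Ptprc-positive barcodes, 52.8 against 126 CPM (log2 -1.26, interval -1.34 to -1.18). Mir100hg followed at 9.58 against 22.3 CPM (-1.22), and these 2 of 6 members were at least 2-fold lower in L-fuc d7, against 10.2% of the 16130 genes tested (18.6% in either direction and 8.4% higher). Neat1, at 235 against 343 CPM (-0.55), Gm26917 (-0.66), Lncpint (-0.55) and Malat1 (-0.37) stayed within 2-fold. In tumor barcodes 0 of 6 members passed 2-fold, against 7.93% of 15806 genes (5.11% lower and 2.83% higher). Gm26917 had the largest difference there, 371 against 681 CPM (-0.88), and Kcnq1ot1 the next, 78.5 against 141 CPM (-0.84). In the remaining barcodes 3 of 6 (Kcnq1ot1, Mir100hg and Gm26917) were at least 2-fold lower, against 15.7% of 14450 genes (25.9% in either direction).

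Several measures moved with the day-7 difference. The 2 libraries differed in the share of Ptprc-positive barcodes with tumor markers (7.21% in L-fuc d7 and 27.2% in control d7), with red cell markers (15.3% and 4.08%) and with T cell markers (21.0% and 9.62%). Within T-gated barcodes the summed log2 ratio was -0.24 and that of Kcnq1ot1 was -1.04. Within receptor-bearing barcodes these were -0.17 and -0.95, and within macrophage-gated barcodes -0.94 and -2.02. Kcnq1ot1 was therefore lower in L-fuc d7 within every gate that held at least 50 barcodes in both libraries, from -0.85 in tumor-gated to -2.02 in macrophage-gated barcodes.

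The day-7 difference in tumor barcodes depended on the mitochondrial share. The log2 ratio was -0.03 below 1%, 0.01 at 1% to 2%, -0.19 at 2% to 5% and -0.68 at 5% to 10% mitochondrial UMIs. In Ptprc-positive barcodes it was -0.26, -0.09, -0.16 and -0.38. In the remaining barcodes it was -0.90, -0.40, -0.40 and -0.31, so there the difference was largest below 1%. Barcodes with at least 5% of the 6 RNAs were 2.66% of L-fuc d7 and 7.16% of control d7. Thinned to 1000 UMIs each, 211 of 9544 and 1345 of 17974 barcodes reached 5%, with 2721 and 1324 shallower barcodes left out.

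At day 21 the summed shares of the 2 arms were closer. They were 0.732% in L-fuc d21 and 0.714% in control d21 for tumor barcodes (log2 0.035, interval 0.019 to 0.051), and 0.855% and 0.790% for Ptprc-positive barcodes (0.11, 0.10 to 0.13). As a mean of barcode shares the sign turned, to -0.29 in tumor and -0.44 in Ptprc-positive barcodes. By the median over barcodes L-fuc d21 was higher in each class. These medians were 0.861% against 0.608% in tumor, 0.887% against 0.615% in Ptprc-positive and 0.979% against 0.0494% in remaining barcodes. Within mitochondrial groups the Ptprc-positive ratio went from 0.46 below 1% to -1.11 at 5% to 10%, and the tumor ratio from 0.47 to -0.63. The order of the 2 arms at day 21 therefore depended on the measure and on the mitochondrial share.

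Neat1 was lower in L-fuc d21 in all 3 classes, at 204 against 261 CPM in tumor (-0.35), 182 against 212 CPM in Ptprc-positive (-0.22) and 242 against 424 CPM in remaining barcodes (-0.81). Kcnq1ot1 was higher in all 3, with 40.5 against 24.96 CPM in Ptprc-positive barcodes (0.70, interval 0.44 to 0.96). None of the 6 passed 2-fold in tumor barcodes (5.46% of 12882 genes did, 3.7% higher and 1.76% lower). In Ptprc-positive barcodes only Mir100hg did (8.17% of 13444 genes, 5.1% higher and 3.07% lower), on 17 against 7 UMIs, with an interval of 0.04 to 2.90. In the remaining barcodes only Lncpint did, on 23 against 74 UMIs (14.3% of 11583 genes, 4.53% lower and 9.76% higher).

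**Figure D5:**
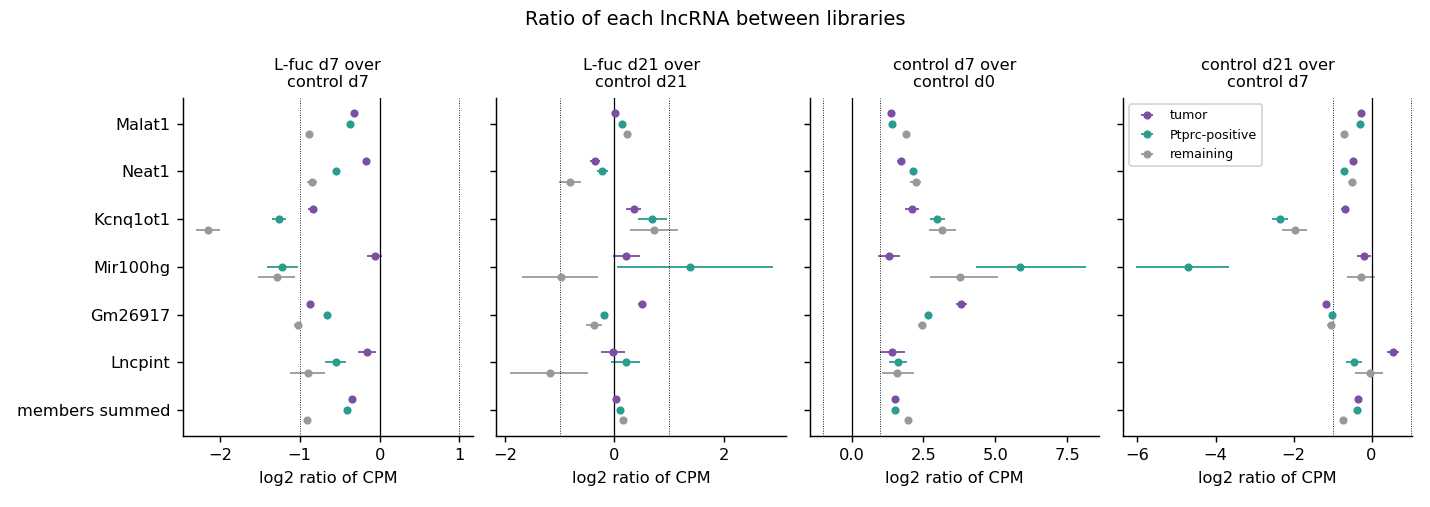
Log2 ratio of CPM between libraries for each RNA and for the 6 summed, with a point per barcode class and exact 95% counting intervals; dotted lines mark 2-fold, and each panel has its own horizontal scale. All day-7 points of L-fuc over control lie below 0, and all points of control d7 over control d0 lie above 2-fold.

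Between control d0 and control d7, all 6 RNAs were at least 2-fold higher at day 7 in each class, against 9.85% of 15071 genes in tumor, 28.7% of 15184 in Ptprc-positive and 29.6% of 13697 in remaining barcodes. In either direction 15.3%, 39.8% and 42.9% of genes passed 2-fold, and 5.43%, 11.2% and 13.2% were lower at day 7. In tumor barcodes the folds were 2.61 for Malat1, 3.29 for Neat1, 4.29 for Kcnq1ot1, 2.45 for Mir100hg, 14.0 for Gm26917 and 2.65 for Lncpint. In Ptprc-positive barcodes Mir100hg had the largest ratio, 58.7-fold on 666 against 3 UMIs (log2 interval 4.32 to 8.16), in classes that held 27.2% and 0.617% tumor-marker barcodes. The mitochondrial share moved the same way (medians 0.269% and 2.44%), and library, day and this share cannot be told apart with 1 library each. The median of all genes was 0.00 in tumor barcodes but 0.39 in Ptprc-positive barcodes.

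From control d7 to control d21, the summed share was lower in tumor (log2 -0.33), Ptprc-positive (-0.37) and remaining barcodes (-0.72). In tumor barcodes only Gm26917 passed 2-fold (305 against 681 CPM, with 16.9% of 15263 genes past it in either direction, 8.67% lower and 8.22% higher), and Lncpint went the other way (37.4 against 25.4 CPM, 0.56). In Ptprc-positive barcodes Kcnq1ot1 (24.96 against 126 CPM), Mir100hg (0.848 against 22.3 CPM) and Gm26917 (449 against 903 CPM) were at least 2-fold lower, against 25.3% of 15139 genes (37.4% in either direction, 12.1% higher), and the median of all genes was -0.36. In the remaining barcodes 2 of 6, Kcnq1ot1 and Gm26917, were at least 2-fold lower (14.1% of 13889 genes, 30.2% in either direction and 16.1% higher).

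Among lists of related genes at day 7, of 14 paraspeckle protein mRNAs, which encode the partners of Neat1, none passed 2-fold in Ptprc-positive barcodes (median log2 -0.20, range from Matr3 at -0.41 to Hnrnph3 at 0.14). Of 18 nuclear speckle protein mRNAs, the partners of Malat1, none did either (median -0.20, from Srsf1 at -0.50 to Rbm39 at 0.09). Both medians lay near the -0.16 of all genes. Of 6 countable genes in the Kcnq1ot1 domain, 2 were at least 2-fold higher, led by Slc22a18 at only 0.653 against 0.267 CPM, against 8.4% of all genes tested, and the lowest was Cd81, a tetraspanin, at 347 against 492 CPM. Of 15 p53 targets, Btg2 was the highest (320 against 151 CPM) and Phlda3 the lowest (40.2 against 94.6 CPM), and these 2 of 15 were the ones past 2-fold, against 18.6% of all genes in either direction.

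Other nuclear noncoding RNAs differed among themselves. In Ptprc-positive barcodes at day 7, 2 of 15 were at least 2-fold lower in L-fuc d7, against 10.2% of all genes tested, the lowest being Rian, an imprinted transcript, at 0.280 against 0.668 CPM. The highest was AY036118, the antisense neighbour of Gm42418 near Gm26917, at 3187 against 1815 CPM (0.81), whereas Gm26917 was lower (-0.66). The snoRNA hosts had a median of -0.10 with none of 10 past 2-fold. The 13 mitochondrial mRNAs had a median of -0.40, the lowest being mt-Cytb at -0.64. At day 21, AY036118 was again the highest of its list in tumor barcodes, at 3888 against 1402 CPM.

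Across the 15 sums of library and class, the genes most like Malat1 in log2 CPM (Pearson r over 7502 genes with at least 10 UMIs in each sum) were Smg1 (0.932), Ankfy1 (0.924), Marf1 (0.916), Nfat5 (0.910) and Zbtb11 (0.907). The genes most like Neat1 were Mafg (0.921), Tug1 (0.898), Strn (0.885), Ddx17 (0.882) and Mapk8ip3 (0.881), of which Tug1 is itself a nuclear-enriched lncRNA. Malat1 and Neat1 had an r of 0.868 with each other and Malat1 and Gm26917 of 0.903. The 15 sums come from 5 libraries and share depth and make-up, so these values describe the libraries.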

How the data were processed

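The deposited gene expression matrices held counts of UMIs per gene and barcode. Per the labels and the study's methods, the authors aligned reads to mm10 with Cell Ranger (3.0 in the submitters' processing notes, 7.1.0 in the matrix headers) and worked in Seurat 4.0. The version in the headers counts intronic reads by default, which raises long-gene and lncRNA counts, but whether that setting was used is not given in the sources used here. The authors' receptor tables held UMI counts per contig, and a barcode with a productive contig counted as receptor-bearing.

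Barcodes with at least 200 genes and at most 10% mt- UMIs were kept, without a doublet filter or the study's complexity filter, both tried as alternatives. UMIs were summed per library and class and divided by the class total (CPM). Intervals are exact at 95% (Poisson for sums, binomial for shares, conditional for ratios) and cover counting error only, and a share of 0 is given the limit that 3 counts would set. A gene was tested where the 2 libraries summed to 10 or more UMIs, and called at 2-fold with a pseudocount of 1 UMI. With 1 library per condition no test was possible. The long-gene measure was added after the data were seen. The members and gene lists were chosen with earlier results of these data known. Named genes were the 6 members, the highest and lowest gene of each list, and the 5 genes most like Malat1 and Neat1. Kept barcodes held 14377573 to 116085791 UMIs per library. The analysis used Python 3.11.15, numpy 2.4.6, pandas 2.3.3, scipy 1.17.1 and scanpy 1.11.5 (Scrublet). Of 32285 features, 32158 matched GENCODE vM21.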

Additional observations from a re-analysis of the deposited data

Results flagged for a closer look

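Some L-fuc over control differences had opposite signs at day 7 and day 21 with both counting intervals clear of 0. With 1 library per arm and day the difference between the days was not tested, and a library-to-library difference would look the same.

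Kcnq1ot1 turned in all 3 classes, with log2 ratios of -0.84 and 0.36 at days 7 and 21 in tumor, -1.26 and 0.70 in Ptprc-positive and -2.15 and 0.72 in remaining barcodes. Malat1 turned in Ptprc-positive (-0.37 and 0.14) and remaining barcodes (-0.89 and 0.23). Gm26917 turned in tumor barcodes, from -0.88 to 0.50, and Mir100hg in Ptprc-positive barcodes, from -1.22 to 1.38. The 6 RNAs summed went from -0.35 to 0.035 in tumor, from -0.41 to 0.11 in Ptprc-positive and from -0.91 to 0.16 in remaining barcodes. Some of these turns were lost under other settings, which were run for tumor and Ptprc-positive barcodes. As a mean of barcode shares the day-21 value was -0.080 for Kcnq1ot1 in tumor, -0.40 for Malat1 in Ptprc-positive, and -0.29 and -0.44 for the summed RNAs in tumor and Ptprc-positive barcodes. In receptor-bearing barcodes it was -0.42 for Malat1 and -0.43 for the summed RNAs. The summed value was also below 0 without Malat1 in Ptprc-positive barcodes (-0.13) and with the 20% mitochondrial limit in tumor barcodes (-0.054). The day-21 signs of Kcnq1ot1 and Mir100hg in Ptprc-positive and of Gm26917 in tumor barcodes held under every setting that gave a value. Neat1 was lower in L-fuc at both days in all 3 classes and so was not among them.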

How the results depend on the processing

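No paired analysis was possible because each condition is 1 library and the replicate number 1 only names it. Values are log2 ratios of L-fuc over control. The median over tumor barcodes at day 7 had the reverse order (0.644% in L-fuc d7 and 0.594% in control d7). Under every alternative run, all of them sums or means, the day-7 share kept its sign. In Ptprc-positive barcodes (-0.41) it was -0.43 with at least 500 genes or a 20% mitochondrial limit, -0.40 without the highest Scrublet scores, -0.68 without Malat1, -0.39 without mt- and ribosomal protein UMIs in the denominator and -0.32 as a mean of barcode shares. With alternatives chosen after seeing the data it was -0.40 with at least 2000 UMIs and -0.20 in receptor-bearing barcodes. In tumor barcodes (-0.35) it was -0.28 with the 20% limit, -0.34 with a complexity of at least 0.8 and without the highest Scrublet scores, -0.59 without Malat1, -0.34 with the other denominator, -0.49 as a mean of barcode shares, -0.23 with at least 2 UMIs of Sox10 and -0.32 with at least 2000 UMIs.

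The day-21 share changed sign under some. In Ptprc-positive barcodes (0.11) it was 0.13 with at least 500 genes, 0.020 with the 20% limit, 0.070 with the complexity limit, -0.13 without Malat1, 0.084 with the other denominator, -0.44 as a mean of barcode shares, 0.22 with at least 2000 UMIs and -0.43 in receptor-bearing barcodes. In tumor barcodes (0.035) it was -0.054 with the 20% limit, 0.054 with the complexity limit, 0.19 without Malat1, -0.29 as a mean of barcode shares and 0.067 with at least 2 UMIs of Sox10. The cause was not tested.

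The share of barcodes with at least 5% of the 6 RNAs and at most 1% mt- UMIs (-1.04 at day 7, 43 and 139 barcodes) was -1.82 with a limit of 10%, -1.98 with at least 2000 UMIs and, reversed, 0.44 with at most 0.5% mt- UMIs (19 and 22 barcodes). At day 21 it was at most -1.06, with 0 barcodes set to a floor of 3, and at most -0.32 with the 10% limit. Without Malat1 no ratio was given, with 2 and 1 barcodes at day 7 and 0 and 1 at day 21, nor with at least 2000 UMIs at day 21 (0 and 4). At day 21 few UMIs stood behind Mir100hg in Ptprc-positive barcodes (17 and 7) and behind Lncpint (23 and 74) and Mir100hg (25 and 70) in the remaining barcodes.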
